A study of Mus musculus with 10 samples.

Results

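The genes described here are 9 members of the Slc22 family of organic ion transporters, which are carriers in the plasma membrane that move charged metabolites, vitamins, drugs and toxins. They were chosen by symbol, as 9 of the 55359 genes of the deposited table, and fall into 3 cation and carnitine transporters (Slc22a2, Slc22a4 and Slc22a5) and 6 anion and urate transporters (Slc22a6, Slc22a7, Slc22a8, Slc22a12, Slc22a13 and Slc22a19). Transcripts were measured by poly(A) RNA-seq of whole kidney from male mice, in 5 libraries after sham surgery and 5 libraries after ischaemia of 30 min and reperfusion of 24 h (ischaemia-reperfusion injury, IRI). The sources used here give no strain, age or diet, no interval between sham surgery and sampling, and no statement on whether 1 or both kidneys were clamped. The libraries carry replicate numbers, but the labels do not state that each came from its own mouse, and each p-value therefore reflects spread among libraries that may be technical in part.

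In the kidney, these carriers work in the proximal tubule, where blood-borne ions are taken up across the basolateral membrane and passed into urine across the apical membrane. Anion uptake at the basolateral side is an exchange for dicarboxylates, which are kept high inside the cell by sodium-coupled carriers that depend in turn on the sodium pump. Cation uptake by OCT-type carriers follows the membrane potential, carnitine recovery by OCTN2 is coupled to sodium, and urate is recovered at the apical membrane in exchange for other anions.

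Promoter sequences are shown for the neighbouring pair of basolateral anion transporters and for the pair of OCTN genes, because the members of these pairs lie near each other and the falls of the pairs were of different size (values below). Promoters of 8 of the 9 genes were matched by symbol in a table from RefSeq, build GRCm38.p6; Slc22a7 was not matched. Each sequence is the 250 bases before the gene's start, 5′ to 3′ on the gene's own strand. Capitals mark CG dinucleotides, which are frequent in the second pair and rare or missing in the first.
Slc22a6, chr19:8617746-8617995, plus strand: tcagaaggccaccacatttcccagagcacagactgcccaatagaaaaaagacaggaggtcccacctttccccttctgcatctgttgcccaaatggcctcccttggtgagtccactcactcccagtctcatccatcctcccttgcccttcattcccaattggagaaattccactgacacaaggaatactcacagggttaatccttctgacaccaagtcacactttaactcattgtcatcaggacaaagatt
Slc22a8, chr19:8592932-8593181, plus strand: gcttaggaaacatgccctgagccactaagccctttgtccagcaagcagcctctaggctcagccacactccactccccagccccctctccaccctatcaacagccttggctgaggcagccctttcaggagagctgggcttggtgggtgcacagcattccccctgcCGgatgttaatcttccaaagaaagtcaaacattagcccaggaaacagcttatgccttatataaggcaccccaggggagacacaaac
Slc22a4, chr11:54028105-54028354, minus strand: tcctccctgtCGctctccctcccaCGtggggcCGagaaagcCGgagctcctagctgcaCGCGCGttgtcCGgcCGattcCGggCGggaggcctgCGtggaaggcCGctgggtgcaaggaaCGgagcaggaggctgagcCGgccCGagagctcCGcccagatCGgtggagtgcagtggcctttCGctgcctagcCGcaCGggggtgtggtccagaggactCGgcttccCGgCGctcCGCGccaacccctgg
Slc22a5, chr11:53891704-53891953, minus strand: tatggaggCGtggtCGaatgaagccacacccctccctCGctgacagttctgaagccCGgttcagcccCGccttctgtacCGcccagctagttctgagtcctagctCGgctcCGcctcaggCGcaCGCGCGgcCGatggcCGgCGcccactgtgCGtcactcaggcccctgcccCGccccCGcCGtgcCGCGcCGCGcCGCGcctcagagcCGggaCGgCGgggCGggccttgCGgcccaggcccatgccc

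The promoters of Slc22a4 and Slc22a5 held 26 and 30 CG dinucleotides and had a GC content of 71.2% and 73.6%. The other 6 promoters were poorer in CG: those of Slc22a2 and Slc22a12 held 6 each, that of Slc22a8 held 1, and those of Slc22a6, Slc22a13 and Slc22a19 held 0. A count of 6 lies near the middle, as 49.6% of promoters held fewer. Over the 7377 tested genes whose promoter (the richest, where a gene had several) held 10 or more CG, a limit set with the values known, the median log2 fold change of IRI against sham was 0.08 and 31.5% were called lower, against -0.18 and 42.1% over the 2226 genes with fewer. Only 9603 of the 13324 tested genes had a matched promoter. A link between CG content and the size of the members' falls was not tested. The HNF4 letters CAAAGTCCA, searched on both strands, were in 0.384% of 32851 promoters of the same length, the shorter CAAAGTC within them in 3.84% and the direct repeat known as DR1 in 0.0335%, and 0 of the 8 promoters held any of these. With shares this low, 0 matches in 8 promoters is the likely outcome for any 8 genes. Sites with other letters were not searched, and whether HNF4 acts on these genes was not tested.

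Depth was 13147899 to 18603272 counts per library. IRI replicate 1 stood apart on the second principal component of all tested genes (-47.6, against -6.13 to 18.6 for the other IRI libraries) and held 2.31% of its counts in mitochondrial ribosomal RNA, against 0.214% to 0.450% in the other IRI libraries and 0.230% to 0.267% in sham. Sham replicate 2 was the lowest sham library for 4 of the 9 genes, by a wide margin for Slc22a7, Slc22a13 and Slc22a19. The members' fold changes are therefore also given without these libraries. The kidney label was met by the 12 proximal tubule markers that are no Slc22 gene, whose summed level was 6613 to 7897 FPKM (fragments per kilobase of exon, scaled to the library total) in sham, while 3 hepatocyte markers summed to 7.17 to 18.1 FPKM. All 12 proximal tubule markers were called lower in IRI, against 32.4% of all tested genes. The markers had a summed level of 657 to 2937 FPKM there and a median log2 fold change of -2.99. The 4 injured tubule markers rose from a sum of 1.70 to 4.05 FPKM in sham to 1727 to 2790 FPKM in IRI.

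All 9 transporters fell in IRI (edgeR quasi-likelihood test, adjusted p under 0.05 over 13324 tested genes), and for each of them every IRI library lay below every sham library. Of all tested genes, 32.4% were called lower and 34.5% higher, and 18.6% were lower without overlap between the groups. With library totals as the only scaling, 23.6% of genes were called lower and 47.4% higher, and all 9 transporters were still called lower. The median log2 fold change of the 9 was -2.97, against 0.05 for all tested genes. Falls ran from 2.16-fold for Slc22a4 to 50.9-fold for Slc22a13. On log2(FPKM + 1) with limma, which understates changes of low genes, Slc22a13 was at -4.15 and Slc22a19 at -3.42, and Slc22a7 fell most (-4.89). In bulk RNA, fewer cells of a type and less RNA per cell cannot be told apart.

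**Figure D1:**
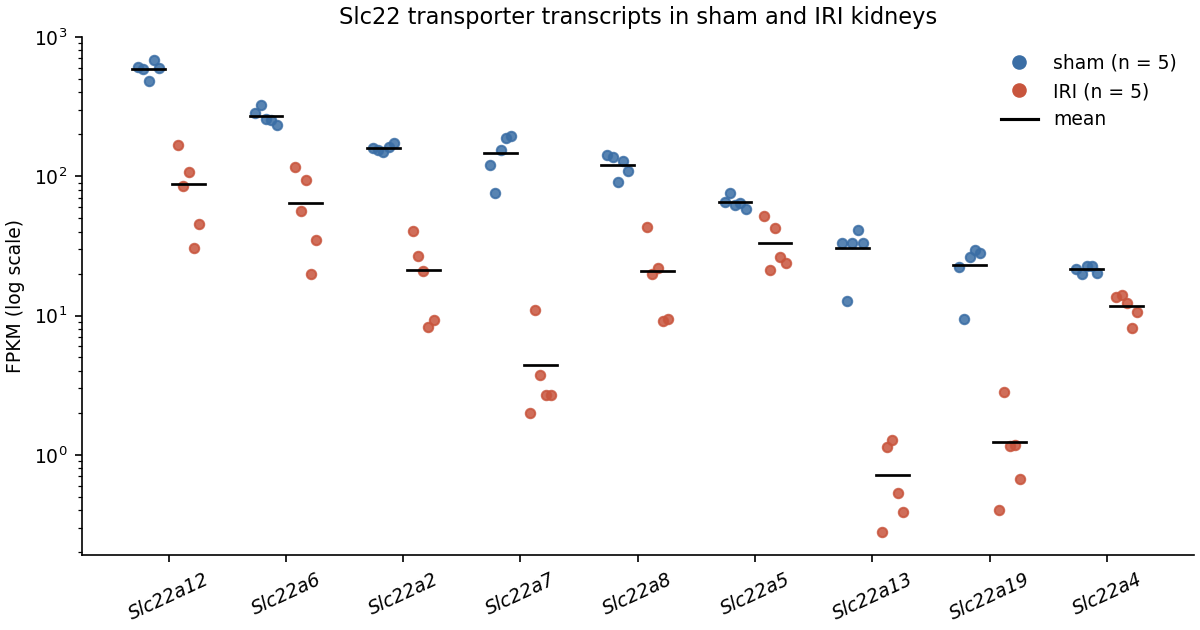
Level of each transporter in FPKM on a logarithmic axis; points are libraries and lines are means of 5 sham (blue) and 5 IRI (red) libraries. No IRI point reaches a sham point of the same gene, and the gap is widest for Slc22a13 and Slc22a7.

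The basolateral cation transporter Slc22a2 (OCT2), which takes up creatinine, metformin and cisplatin, had 161, 154, 148, 163 and 172 FPKM in sham replicates 1 to 5. In IRI replicates 1 to 5 it had 40.6, 26.8, 20.8, 8.25 and 9.26 FPKM. The sham libraries were close to each other, with a coefficient of variation of 5.66%, and the IRI libraries were spread over 4.92-fold with replicates 4 and 5 lowest. The log2 fold change was -3.13 ± 0.41 (SE, adjusted p = 3.42e-05), from 159 ± 9.03 to 21.1 ± 13.4 FPKM (SD, n = 5 each).

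Slc22a4 (OCTN1), the ergothioneine transporter, had 21.7, 19.7, 22.7, 22.9 and 20.1 FPKM in the sham libraries. The IRI libraries had 13.5, 14.1, 12.3, 8.20 and 10.6 FPKM. By means Slc22a4 kept the largest part of its level among the 9; the IRI libraries had 38.3% to 65.9% of the sham mean, with replicate 4 lowest. Its log2 fold change was -1.11 ± 0.15 (SE, adjusted p = 3.63e-05), and its level went from 21.4 ± 1.44 to 11.7 ± 2.40 FPKM (SD, n = 5 each).

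Slc22a5 (OCTN2), which recovers carnitine from the filtrate, had 65.5, 75.2, 61.8, 64.6 and 58.2 FPKM in sham. It had 51.4, 21.1, 42.6, 26.2 and 24.0 FPKM in IRI, with replicates 1 and 3 higher than the other 3 and below the sham range. The log2 fold change was -1.21 ± 0.25 (SE, adjusted p = 0.00106), from 65.1 ± 6.37 to 33.1 ± 13.2 FPKM (SD, n = 5 each). The counts of Slc22a5 are uncertain to a degree: 13.7% of the 100-base windows of its transcript occur in transcripts of other Slc22 genes, and its coding sequence is 90.5% identical to that of Slc22a21, the gene between Slc22a5 (chr11:53755368-53782486, GRCm39) and Slc22a4 (chr11:53873949-53918916). Against a threshold of 2-fold in place of 0 (edgeR's glmTreat, which called 10.2% of tested genes lower), Slc22a4 (adjusted p = 0.380) and Slc22a5 (adjusted p = 0.341) did not pass, and the other 7 transporters did.

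Slc22a6 (OAT1), the basolateral exchanger that takes up para-aminohippurate and many drugs, had 286, 326, 259, 254 and 232 FPKM in sham. In IRI it had 116, 56.4, 94.1, 19.8 and 35.1 FPKM. The IRI libraries were widely spread, from 7.31% of the sham mean in replicate 4 to 42.7% in replicate 1. Slc22a6 thus had a log2 fold change of -2.30 ± 0.42 (SE, adjusted p = 0.000405), from 271 ± 36.1 to 64.3 ± 40.2 FPKM (SD, n = 5 each).

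Slc22a8 (OAT3), the second basolateral anion exchanger, with a preference for bulkier anions such as conjugated steroids, lies beside Slc22a6 on the same strand (chr19:8568618-8589199 and chr19:8595403-8605663, GRCm39). It had 141, 137, 91.0, 129 and 109 FPKM in sham and 43.5, 19.9, 21.8, 9.17 and 9.48 FPKM in IRI. As for Slc22a6, IRI replicate 1 was highest and replicate 4 lowest. This gave Slc22a8 a log2 fold change of -2.76 ± 0.42 (SE, adjusted p = 0.000101), from 121 ± 21.1 to 20.8 ± 13.96 FPKM (SD, n = 5 each).

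Slc22a7 (OAT2), an organic anion transporter of kidney and liver, had 121, 75.6, 155, 188 and 194 FPKM in sham. Its IRI values were 1.99, 11.0, 3.74, 2.68 and 2.71 FPKM, from 68 to 305 counts. Replicate 2 was the lowest of the sham libraries and replicate 2 the highest of the IRI libraries, and IRI replicate 1, highest for Slc22a6 and Slc22a8, was lowest here. For Slc22a7 the log2 fold change was -5.32 ± 0.49 (SE, adjusted p = 2.19e-06), from 147 ± 49.4 to 4.43 ± 3.75 FPKM (SD, n = 5 each). Without IRI replicate 2 it was -5.97.

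Slc22a12 (URAT1), the apical urate exchanger and the most abundant of the 9 in both groups, had 605, 584, 481, 679 and 598 FPKM in sham. It had 169, 84.7, 108, 30.4 and 45.3 FPKM in IRI. Replicates 4 and 5 were again lowest and replicate 1 highest. The log2 fold change was -2.97 ± 0.42 (SE, adjusted p = 5.68e-05), from 589 ± 71.1 to 87.4 ± 54.9 FPKM (SD, n = 5 each). Slc22a12 overlaps Nrxn2 on the opposite strand, which had means of 2.37 FPKM in sham and 1.47 FPKM in IRI, and the sources used here do not say whether counting used strand.

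Slc22a13 (OAT10), an apical exchanger of nicotinate and urate, had 33.1, 12.8, 33.0, 40.9 and 33.3 FPKM in sham. It had 0.28, 1.14, 1.27, 0.53 and 0.39 FPKM in IRI, which rest on 9 to 44 counts per library. All 5 IRI libraries held between 0.915% and 4.15% of the sham mean. For Slc22a13 the log2 fold change was -5.67 ± 0.41 (SE, adjusted p = 4.47e-07), from 30.6 ± 10.5 to 0.722 ± 0.452 FPKM (SD, n = 5 each). Slc22a13 overlaps Slc22a14 on the same strand, which had means of 0.622 FPKM in sham and 0.172 FPKM in IRI.

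Slc22a19 (OAT5), an apical anion transporter that carries sulfated steroids, had 22.1, 9.44, 26.4, 29.6 and 28.1 FPKM in sham. It had 0.40, 2.81, 1.16, 1.17 and 0.67 FPKM in IRI, from 35 to 201 counts. As for Slc22a7, the lowest sham library was replicate 2, the highest IRI library was replicate 2 and the lowest was IRI replicate 1. Its log2 fold change was -4.50 ± 0.47 (SE, adjusted p = 5.58e-06), from 23.1 ± 8.13 to 1.24 ± 0.936 FPKM (SD, n = 5 each). Its closest relative by coding sequence was Slc22a27, with 76.4% identity, and 0.158% of its 100-base windows were shared with other Slc22 transcripts.

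**Figure D2:**
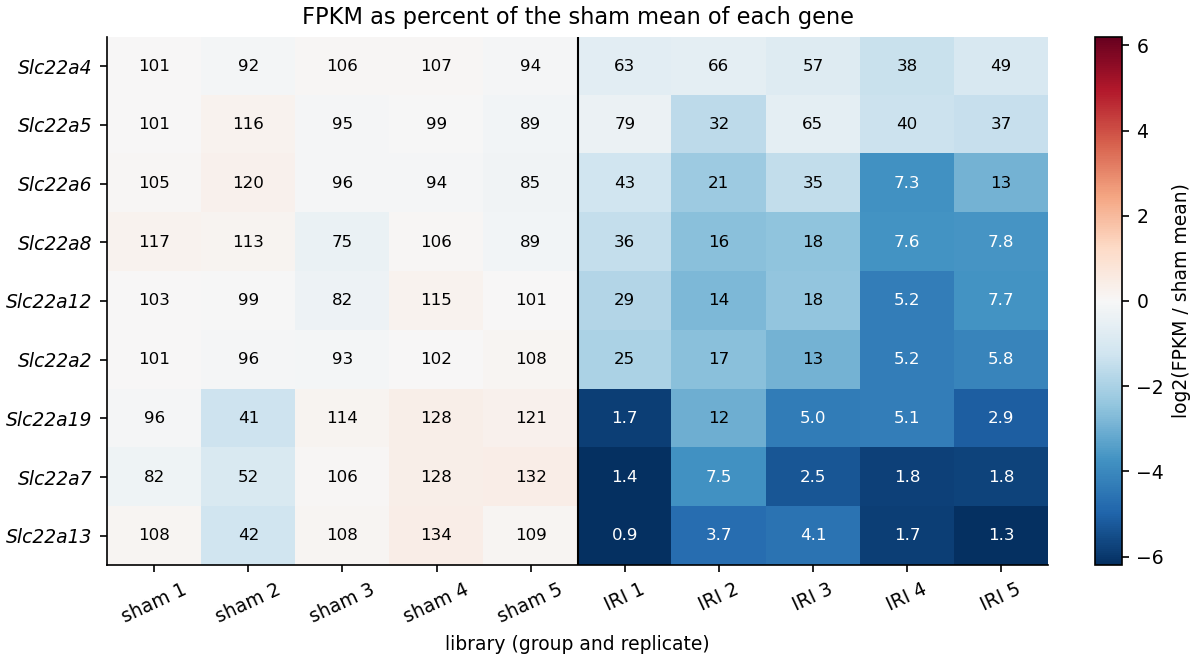
FPKM of each transporter (rows) in each of the 10 libraries (columns) as percent of that gene's sham mean; colour is the log2 ratio to the sham mean. Slc22a7, Slc22a13 and Slc22a19 are low in sham replicate 2 and lowest in IRI replicate 1, where Slc22a2, Slc22a5, Slc22a6, Slc22a8 and Slc22a12 are at their highest IRI level.

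The order of the levels changed between the groups. In sham it ran Slc22a12, Slc22a6, Slc22a2, Slc22a7, Slc22a8, Slc22a5, Slc22a13, Slc22a19 and Slc22a4, per kilobase of exon. The neighbours Slc22a2 and Slc22a7, Slc22a7 and Slc22a8, Slc22a13 and Slc22a19, and Slc22a19 and Slc22a4 overlapped between libraries and the other neighbours did not. In IRI the order was Slc22a12, Slc22a6, Slc22a5, Slc22a2, Slc22a8, Slc22a4, Slc22a7, Slc22a19 and Slc22a13, and every pair of neighbours overlapped between libraries. Within each IRI library, Slc22a12 stood above Slc22a6, Slc22a4 above Slc22a7 and Slc22a7 above Slc22a19. The order of the other neighbours varied among the IRI libraries. Slc22a4, last in sham, stood above Slc22a7, Slc22a13 and Slc22a19 in IRI by means.

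The summed level of the 9 fell from 1428 ± 106 FPKM in sham to 245 ± 133 FPKM in IRI (SD, n = 5 each). The 3 cation and carnitine transporters held 17.02%, 17.8%, 18.2%, 16.0% and 17.3% of that sum in the sham libraries. They held 24.2%, 26.1%, 24.8%, 40.1% and 31.9% in the IRI libraries. The share was thus higher in each IRI library than in any sham library. It was highest in replicate 4, where the sum was lowest at 106.5 FPKM. Slc22a5 held 4.03% to 5.40% in sham and 8.87% to 24.6% in IRI, and Slc22a4 held 1.39% to 1.78% and 3.10% to 7.70%. Slc22a2, the largest of the 3 in sham, did not gain, with 10.4% to 11.9% in sham and 6.74% to 11.3% in IRI. The median log2 fold change was -1.21 in the cation and carnitine class and -3.73 in the anion and urate class. The second median lay in the gap between Slc22a12 (-2.97) and Slc22a19 (-4.50). The difference of the class medians was 2.53. By library, against the sham mean, the difference was 1.24 in IRI replicate 2 and 2.52 to 3.08 in the other 4 IRI libraries. The classes overlapped: Slc22a2 (-3.13) fell more than Slc22a6 (-2.30), Slc22a8 (-2.76) and Slc22a12 (-2.97) by point estimate, within their standard errors for the last 2. This class difference is a description, with no test, because the members were chosen with results known. The summed level of the 9 transporters, set against that of the 12 proximal tubule markers, was 17.8% to 19.9% in sham and 14.9% to 22.3% in IRI, ranges that overlap.

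**Figure D3:**
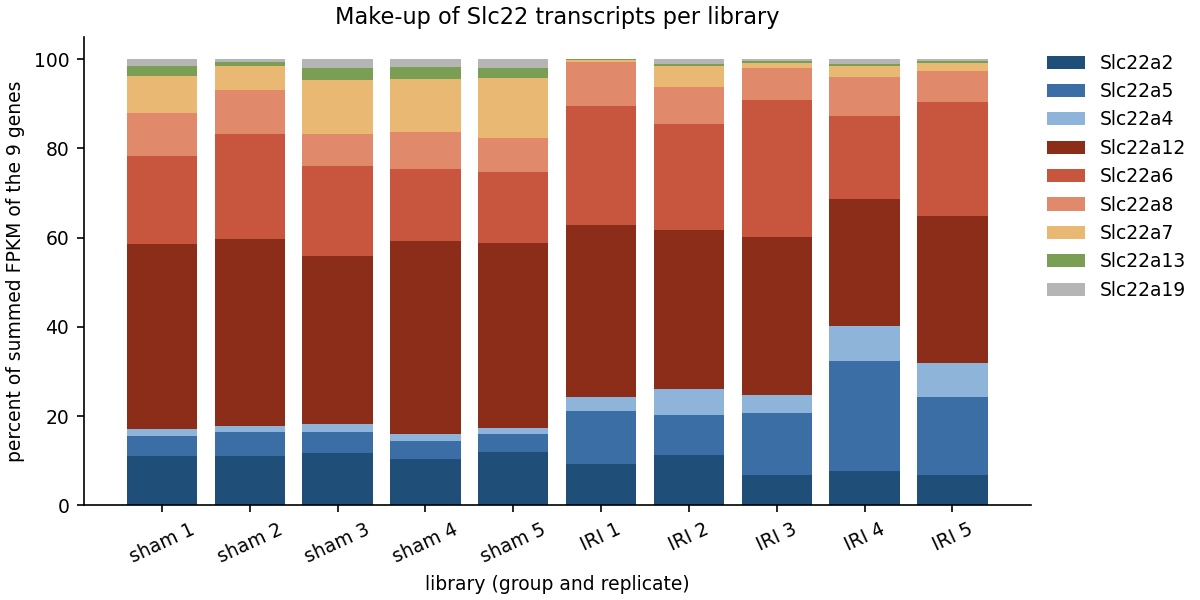
Share of each transporter in the summed FPKM of the 9 genes, in percent, for each of the 10 libraries; blue tones are the cation and carnitine class. The blue part is 16.0% to 18.2% in sham and 24.2% to 40.1% in IRI. Within it, Slc22a4 and Slc22a5 are larger in each IRI library than in any sham library, and Slc22a2 is not.

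Ratios of related transporters within each library, as log2 of FPKM + 0.1, do not depend on the scaling of libraries apart from the small pseudocount and were compared between the groups by a two-sided exact permutation test (252 assignments, smallest possible p = 0.00794; Benjamini-Hochberg adjustment over 4 ratios, of which 3 are given). The ratio of the urate exchangers Slc22a12 to Slc22a13 was 4.19, 5.50, 3.86, 4.05 and 4.16 in sham and 8.81, 6.09, 6.30, 5.60 and 6.55 in IRI. Every IRI library was higher than every sham library (difference 2.32, exact permutation p = 0.00794, adjusted p = 0.0159). The margin was narrow, with 5.60 in IRI replicate 4 against 5.50 in sham replicate 2. By these values Slc22a13 fell more than Slc22a12. The members were chosen with results known, which the p-values of these ratios do not take into account. With a pseudocount of 1 FPKM, which lies above the mean of Slc22a13 in IRI, the difference was 1.17 and no longer passed (adjusted p = 0.111).

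The other 2 ratios did not pass the test. Slc22a6 to Slc22a8 was 1.01, 1.25, 1.51, 0.98 and 1.09 in sham and 1.41, 1.4999, 2.10, 1.11 and 1.88 in IRI, with overlapping groups (difference 0.43, exact permutation p = 0.0714, adjusted p = 0.0952). Without sham replicate 3, its highest sham library, the difference was 0.52 and passed (adjusted p = 0.0423). Slc22a4 to Slc22a5 was -1.59, -1.93, -1.44, -1.496 and -1.53 in sham and -1.92, -0.58, -1.78, -1.66 and -1.17 in IRI (difference 0.17, exact permutation p = 0.595, adjusted p = 0.595). Of the 5 IRI libraries, 3 lay inside the sham range and 2 above it, and without IRI replicate 2 the difference was -0.04.

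**Figure D4:**
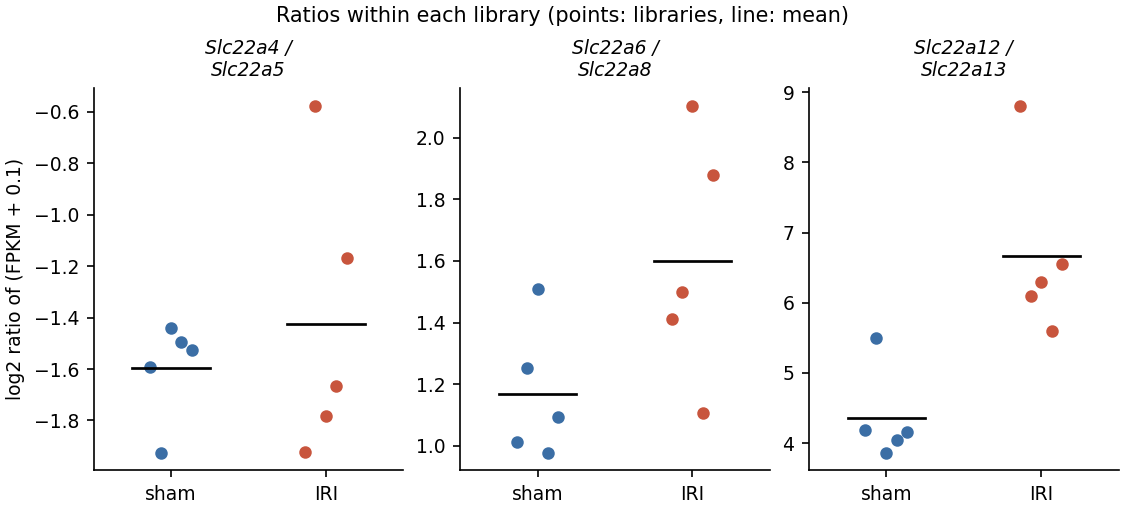
Log2 ratio of FPKM + 0.1 of 3 pairs of transporters; points are libraries, lines are group means of 5 sham (blue) and 5 IRI (red) libraries, and each panel has its own axis. Groups are separate for Slc22a12 to Slc22a13 and overlap for the other 2 pairs.

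Around the group means, the 9 transporters did not vary as 1 set. Slc22a7, Slc22a13 and Slc22a19 correlated with each other at r = 0.79 to 0.92 (Pearson's r of log2 CPM, counts scaled to library size, centred on each group's mean, over 10 libraries that share depth and the 2 libraries named above). Slc22a2, Slc22a6, Slc22a8 and Slc22a12 correlated with each other at 0.89 to 0.96. Between these sets, which were drawn after the values were seen, r lay between -0.29 and 0.23. Slc22a4 correlated with the second set at 0.81 to 0.91 and with the first at 0.09 to 0.37. Slc22a5 correlated with the second set at 0.61 to 0.79 and with the first at -0.62 to -0.28.

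Of the 12 proximal tubule markers, 3 had their lowest sham value in replicate 2 and 0 had their lowest IRI value in replicate 1, which was the highest IRI library for 8 of them. For 7 of the 12 markers sham replicate 2 was instead the highest sham library, and sham replicates 3 and 5 were lowest for the other 9. The 3 lowest in replicate 2, named after their values were seen, also had their highest IRI value in replicate 2, as Slc22a7 and Slc22a19 did. Cyp7b1, a steroid hydroxylase, had 23.0 FPKM in sham replicate 2 against 74.5 to 123 FPKM in the other sham libraries, and its log2 fold change was -5.11 ± 0.47 (SE, adjusted p = 2.21e-06 by edgeR). Slc7a13, an amino acid transporter of the straight proximal tubule, had 347 FPKM in that library against 387 to 438 FPKM, and its log2 fold change was -4.98 ± 0.58 (SE, adjusted p = 1.36e-05 by edgeR). Napsa, an aspartic protease gene, had 475 FPKM there against 733 to 1043 FPKM.

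Without IRI replicate 1, the falls of the 6 genes that were not lowest in it were larger: Slc22a2 had a log2 fold change of -3.57, Slc22a4 -1.20, Slc22a5 -1.47, Slc22a6 -2.68, Slc22a8 -3.29 and Slc22a12 -3.41. Those of the genes lowest in it were smaller, at -5.16 for Slc22a7, -5.49 for Slc22a13 and -4.29 for Slc22a19. Without sham replicate 2 these last 3 were -5.46, -5.84 and -4.67. Without both libraries, which was chosen after seeing the data, the 9 values ran from -1.22 for Slc22a4 to -5.68 for Slc22a13, and all 9 were called.

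For each transporter, the 3 tested genes whose log2 CPM followed it most closely around the group means are a description over the same 10 libraries. For Slc22a2 they were Susd3, Upb1 and the urate and anion carrier Slc17a3 (r = 0.99 each). Slc22a12 and Slc22a8 had the carbohydrate kinase gene Fggy in common (r = 0.98 and 0.99), beside Smlr1 and Rnf11 for the first and Cideb and Aldh2 for the second. Slc22a6 was followed by Cckar, Dhtkd1 and Nat8f5 (r = 0.98 each). Slc22a4 was followed by Azgp1, Dmgdh and Treh (r = 0.97, 0.96 and 0.95). Slc22a5 was followed by Jmjd8, the gluconeogenic enzyme gene Pck1 and Rab11fip3 (r = 0.98, 0.98 and 0.97). Slc22a7 was followed by Apoc3, Serpina1d and Cbfa2t3 (r = 0.94, 0.94 and 0.93). Slc22a13 was followed by Serpina1f, A4gnt and Eif4ebp1 (r = 0.97, 0.95 and 0.93), and Slc22a19 by Rflnb, the desaturase gene Scd1 and Fbln1 (r = 0.97, 0.96 and 0.95). No gene was shared between the lists of the 9 other than Fggy.

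Of 15 other Slc22 genes, 9 passed the level filter, and 8 were called lower and 1 higher (all tested genes: 32.4% and 34.5%). Their median log2 fold change was -2.83. The 4 with the largest falls were Slc22a26 (-4.34 ± 0.33), Slc22a30 (-4.01 ± 0.51), Slc22a22 (-3.69 ± 0.64) and Slc22a28 (-3.37 ± 0.60; SE). Slc22a26, like Slc22a13 and Slc22a19, was lowest of the sham libraries in replicate 2, at 3.28 FPKM against 8.58 to 10.1 FPKM. Slc22a22 (-4.80) and Slc22a28 (-4.24) moved by over 1.5 times without IRI replicate 1. Slc22a16 and Slc22a20 were listed at 0 in all 10 libraries.

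The gene called higher, named after its values were seen, was Slc22a21, the third OCTN gene. It had 1.51, 2.05, 2.16, 2.12 and 2.31 FPKM in sham and 4.47, 4.4, 3.5, 4.47 and 3.83 FPKM in IRI, where every library lay above sham (log2 fold change 0.78 ± 0.15, adjusted p = 0.000497 by edgeR). Its neighbours Slc22a4 and Slc22a5 fell. Its near identity with Slc22a5, given above, makes its counts uncertain, and the share of its reads that came from Slc22a5 was not tested. Slc22a15, also named after its values were seen, was below the level filter and had 0.212 ± 0.143 FPKM in sham and 0.826 ± 0.108 FPKM in IRI (SD, n = 5 each). Fitted without the filter, where 19.3% of 30454 genes were called higher, its log2 fold change was 1.75 ± 0.31 (SE, adjusted p = 0.000126 by edgeR).

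**Figure D5:**
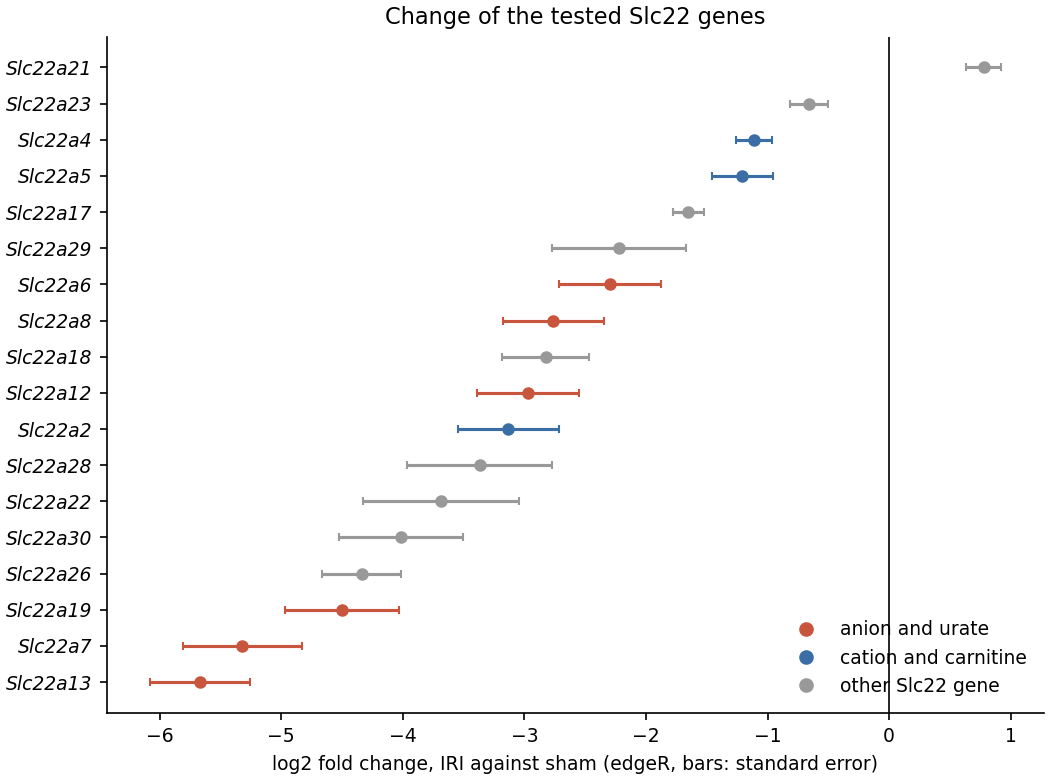
Log2 fold change of IRI against sham (edgeR, bars are standard errors) for the 9 transporters, coloured by class, and 9 other Slc22 genes tested, in grey. Slc22a21 alone of these 18 lies above 0, and Slc22a4 and Slc22a5 lie nearest to 0 among the 9.

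Carriers that complete the passage of organic ions and urate were lower for 11 of 13 tested genes of 15 listed, with 2 higher. Their median log2 fold change was -2.37 (all tested genes: 32.4% lower and 34.5% higher). The 4 largest falls were those of Slco4c1 (-4.45 ± 0.32), Slco1a1 (-4.17 ± 0.55), both organic anion transporting polypeptides, Slc5a8 (-3.82 ± 0.51), a sodium-coupled monocarboxylate carrier, and Slc17a3 (-3.48 ± 0.47; SE). Slco1a1 was at -4.79 without IRI replicate 1. The 2 that rose, named after their values were seen, were the efflux pumps Abcb1a (1.34 ± 0.22, adjusted p = 0.000158) and Abcc4 (0.58 ± 0.24, adjusted p = 0.0458), both by edgeR. Abcb1a was low in both groups, with 0.32 to 0.69 FPKM in sham and 1.26 to 2.08 FPKM in IRI. It passed the level filter through its IRI libraries alone. The call of Abcc4 was lost when any 1 library other than sham replicate 3 was left out, with adjusted p of 0.0594 to 0.0884.

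Genes of the driving gradient and the scaffolds were split. Of 7 genes, 5 were lower, 1 higher and 1 not called (all tested genes: 32.4% lower and 34.5% higher). The median log2 fold change of the 7 was -1.41. The dicarboxylate carriers Slc13a2 (-2.71 ± 0.32) and Slc13a3 (-2.44 ± 0.50), the brush border scaffold Pdzk1 (-2.65 ± 0.49) and its partner Pdzk1ip1 (-1.41 ± 0.17; SE) had the largest falls. Slc13a3 (-3.11) and Pdzk1 (-3.39) moved by over 1.5 times without IRI replicate 1. The scaffold gene Slc9a3r1 was the fifth that fell (-1.06 ± 0.12), and Slc9a3r2 was called higher (0.33 ± 0.13, adjusted p = 0.0351 by edgeR), a call lost when any 1 library other than sham replicate 5, IRI replicate 1 or IRI replicate 4 was left out, with adjusted p of 0.0532 to 0.0880; both were named after their values were seen. The sodium pump subunit gene Atp1b1 was not called, with 618 ± 61.9 FPKM in sham and 602 ± 124 FPKM in IRI (SD, n = 5 each) and a log2 fold change of -0.30 ± 0.14 (SE); DESeq2 called it lower (-0.32, adjusted p = 0.0233). The 4 markers of the thick ascending limb, a segment that also carries the pump, summed to 651 to 1566 FPKM in sham and 1401 to 2549 FPKM in IRI, with 2 called higher and 2 lower, and the part of other segments in the Atp1b1 values was not tested.

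Transcription factor genes known to act on proximal tubule carriers were lower for 3 of 6, and 3 were not called. Of all tested genes 32.4% were called lower, and a count over 6 genes cannot be set apart from that share. The 6 had a median log2 fold change of -0.71. Hnf4a had 159, 135, 132, 139 and 112 FPKM in sham and 55.2, 19.3, 64.6, 18.3 and 16.5 FPKM in IRI, with no overlap (-2.19 ± 0.40, SE, adjusted p = 0.000437 by edgeR). Hnf4g (-1.48 ± 0.42) and Rxra (-0.80 ± 0.13; SE) were the other 2. Ppara (-0.63 ± 0.37) and Bcl6 (-0.34 ± 0.24) were not called, nor was Nr1i2 (0.16 ± 0.29; SE), also named after its values were seen, which was at -0.16 without IRI replicate 3. Ppara was called (-0.94, adjusted p = 0.0342 by edgeR) without IRI replicate 3.

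The next list held genes of carnitine synthesis and genes of the carnitine shuttle of fatty acids. The shuttle uses what Slc22a5 brings in. Of 7 tested, 4 were lower, 1 higher and 2 not called (all tested genes: 32.4% lower and 34.5% higher). The median log2 fold change of the 7 was -0.77. The 4 were Crot (-2.40 ± 0.18), Aldh9a1 (-1.84 ± 0.19), Cpt2 (-0.86 ± 0.18) and Crat (-0.77 ± 0.11; SE). Slc25a20, the mitochondrial carnitine carrier, named after its values were seen, was called higher (0.32 ± 0.10, adjusted p = 0.0144 by edgeR). Cpt1a (0.30 ± 0.13; SE, adjusted p = 0.0544 by edgeR) had 50.3 ± 7.21 FPKM in sham and 73.5 ± 8.30 FPKM in IRI (SD, n = 5 each), and it was called without sham replicate 1, sham replicate 2 or IRI replicate 2, with adjusted p of 0.0295 to 0.0470. Cpt1b had a log2 fold change of 0.51 ± 0.28 (SE) and was not called. Both calls depended on the scaling: with library totals, Cpt1a (0.55, adjusted p = 0.00192 by edgeR) and Cpt1b (0.76, adjusted p = 0.0326 by edgeR) were called higher, as they were by limma on log2 FPKM with either pseudocount. The call of Cpt1a also depended on the filter. With TMM scaling and another filter of genes, it was called higher (0.31, adjusted p = 0.0465 by edgeR), and Cpt1b was not.

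Among markers of other cells, some lists moved mostly in 1 direction and others were mixed (all tested genes: 32.4% lower and 34.5% higher). The 4 tested of 5 neutrophil markers rose, and the 5 summed to 0.94 to 3.27 FPKM in sham and 19.6 to 102 FPKM in IRI. Endothelial markers summed to 38.2 to 55.9 FPKM in sham and 67.3 to 99.4 FPKM in IRI, with 4 of 5 called higher, and podocyte markers to 53.0 to 89.7 FPKM and 136 to 161 FPKM, with 3 of 4 called higher. Macrophage markers summed to 30.0 to 46.8 FPKM and 37.6 to 79.3 FPKM, with 1 of 4 tested called higher and 1 lower. Distal convoluted tubule markers summed to 177 to 281 FPKM and 95.4 to 158 FPKM, with 3 of 4 called lower, and collecting duct markers to 188 to 454 FPKM and 268 to 634 FPKM, with 1 of 5 called in each direction. In each of these lists, 0 markers were at 0 in all 10 libraries. Whether these marker changes came from cell numbers or from RNA per cell, and their part in the falls of the transporters, was not tested.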

How the data were processed

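Kidney RNA of 10 mouse libraries was read from 1 table. Per the file headers, the authors deposited whole-number counts and FPKM for each library, with exonic lengths and coordinates. Per the submitters' processing notes, HISAT2 2.0.1, HTSeq 0.6.1 and cutadapt 1.9.1 were run, with GRCm39 as genome; the sources used here give no settings. Deposited FPKM equalled count over length and library total within 0.005 units or 0.1% for 100% of values. Symbols were matched for 52083 of 55359 gene IDs.

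Genes that reached 1 FPKM in 5 libraries (13324, holding 98.9% to 99.3% of counts) were tested with edgeR 4.0.16 (quasi-likelihood, TMM factors, R 4.3.3), with Benjamini-Hochberg adjustment and calls at 0.05. The fit was checked on counts simulated from sham means and sham spread. It recovered 46% of 1.5-fold changes, 94% of 2-fold changes and 100% of 4-fold and 8-fold changes, and 6.08% of calls were false. Few genes were changed and both groups had sham spread. The check therefore does not cover the wider relative spread of the 9 transporters in IRI or the many genes called. Standard errors are the log2 fold change over the square root of edgeR's F. The test scales by TMM and FPKM by totals, so FPKM ratios and fold changes differ; with library totals the median of all tested genes was higher by 0.25 (log2), and 3149 genes were called lower and 6311 higher, against 4320 and 4599. All 9 transporters were called lower either way. Coding sequences came from GENCODE transcripts of GRCm38 and were compared with Biopython 1.88.

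Alternatives were library totals, no filter, another filter, limma 3.58.1 on log2(FPKM + 1) and log2(FPKM + 0.1), DESeq2 1.42.0, a 2-fold threshold, a replicate block and leaving out each library. The members and lists were chosen with earlier results of these data known. Named genes were the 9 members, from each list at most the 4 called with the largest fold change and 2 not called with the highest FPKM, and 3 correlated genes per member; others are said to be named after their values were seen. Some listed genes and 1 ratio are not reported here and are not in the counts of the lists. Of the scaffold symbols, 2 are newer names of listed genes, and 8 of 9 carnitine symbols were matched.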

Additional observations from a re-analysis of the deposited data

Results flagged for a closer look

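Of 28 groups of 5 libraries checked for a library far from the others (the gap to its nearest neighbour as a share of the group's range, against Dixon's critical value), 3 had one; chance gives about 1 in 20. Slc22a7 had 11.04 FPKM in IRI replicate 2, against 1.99 to 3.74 FPKM in the other IRI libraries. Slc22a13 had 12.79 FPKM in sham replicate 2, against 32.95 to 40.89 FPKM in the other sham libraries. The log2 ratio of Slc22a12 to Slc22a13 was 5.50 in the same sham library, against 3.86 to 4.19 in the others, and shares its Slc22a13 value with the second.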

How the results depend on the processing

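All 9 transporters were called lower under every alternative run except the 2-fold threshold, under which Slc22a4 and Slc22a5 were lost (-1.11 and -1.21, values as in the fit without it) and 2337 genes were called in all, against 8919. The other 169 values of single members under alternatives kept direction and call. Leaving out 1 library in turn gave 8463 to 8976 calls over all genes, 9 of 9 transporters, and a class difference of 2.38 to 2.80. It gave 1.78 to 2.61 for Slc22a12 to Slc22a13, 0.30 to 0.55 for Slc22a6 to Slc22a8 (0.5158 and past the threshold without sham replicate 3) and -0.04 to 0.30 for Slc22a4 to Slc22a5 (-0.0394 without IRI replicate 2). With a pseudocount of 1 FPKM, Slc22a12 to Slc22a13 was 1.1711 (adjusted p = 0.111 by the exact permutation test). Without sham replicate 2 and IRI replicate 1, an alternative chosen after seeing the data, Slc22a12 to Slc22a13 was 2.071 (adjusted p = 0.0571 by the exact permutation test over 2 groups of 4). The remaining libraries did not overlap, with log2 ratios of 3.86 to 4.19 in sham and 5.60 to 6.55 in IRI. The p before adjustment was therefore the smallest that 2 groups of 4 allow. Nr1i2 ranged from -0.1581 without IRI replicate 3 to 0.3288; the cause was not tested. Depth limits Slc22a13 most, with 9 to 44 counts per IRI library.

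Same-numbered libraries correlated at -0.25 to 0.06 around their group means, so no shared signal by replicate number was seen. Whether the libraries were paired by design was not tested. With the replicate block, 4221 genes were called higher and 4097 lower, and all 9 transporters were called. Of the other genes named in the text, the block changed the call of Ppara, which was called lower (-0.61, adjusted p = 0.0421 by edgeR). Sign flips over the 5 pairs, as a replicate block for the ratios, left the difference of Slc22a12 to Slc22a13 at 2.3179 with adjusted p = 0.0833 (exact permutation), in a design that cannot reach 0.05.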
